A study of Mus musculus with 6 samples.

Results

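The SoxC group comprises the transcription factor genes Sox4, Sox11 and Sox12, which were taken by gene symbol from a table of 13158 mouse genes counted in forelimb progenitor cells. All 3 were in the table once and all 3 were tested. SoxC proteins bind DNA through the high-mobility-group box that defines the Sox family and activate transcription through a domain at their carboxyl end. In mouse embryos they are present in neural and mesenchymal progenitors, overlap widely, and are needed for the survival of those cells. In the skeleton, Sox4 and Sox11 act with beta-catenin to keep perichondrium and joint cells out of the cartilage fate that Sox9 drives, and they are also needed to form growth plates. Sox12 is the weakest activator of the group in mouse assays, and mice that lack it alone are viable.

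The cells came from wild-type C57BL/6 forelimbs at embryonic day 13.5 and carried Sox9-CreERT2, a Rosa26-tdTomato reporter and ScxGFP. How and when this inducible Cre was switched on is not given here. The first pair marks cells in which the Sox9-driven Cre recombinase was active and their descendants, whether or not they still transcribe Sox9, and ScxGFP reports the tendon factor Scleraxis. Double-labelled cells were sorted from proximal or from distal limb, giving 3 libraries per region, which the study compared. It is not stated if each library is its own embryo, litter or pool. The p-values therefore cover just the variation among these 6 libraries, and that variation may be technical.

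Library depth was 1585631 to 2623788 counts by bulk MARS-seq, which reads transcript 3' ends. Levels are in CPM, which is the count scaled to library size, here with edgeR's TMM factor for each library, and 3 counts in a library correspond to 1.08 to 2.01 CPM. Both genes of the sort were present in every library, Sox9 at 93.3 to 365 CPM and Scx at 949 to 4122 CPM. The regional change of Scx was a log2 value of 1.15 (SE 0.25, edgeR adjusted p = 0.034), and leaving out proximal library 2, proximal library 3 or distal library 1 ended that call (0.094 to 0.10). The libraries did not differ by region alone. The first principal component of log2 CPM, with 41.2% of the variance, separated the regions, and the second, with 30.4%, set proximal library 1 and distal libraries 1 and 2 apart from proximal libraries 2 and 3 and distal library 3. The pre-ribosomal RNA row Rn45s held 4.63% to 11.7% of counts in the first set and 2.20% to 2.98% in the second. No label gives a batch, and the sets are used below only where a member differs between them.

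The genes lie on different chromosomes and are compact. In GENCODE M21 (GRCm38, the mm10 build that the submitters' notes name) Sox4 is a gene of 1 exon on the minus strand of chromosome 13, from 28948919 to 28953713. Sox11 is also a gene of 1 exon on a minus strand, on chromosome 12 from 27334264 to 27342574. Sox12, on the minus strand of chromosome 2 from 152393611 to 152398063, has 2 annotated transcripts with at most 2 exons. No other annotated gene overlaps Sox11 or Sox12. Sox4 shares 2753 bases, its 3' end included, with the non-coding RNA gene Gm26735 on the opposite strand. Gm26735 has no row in the table, and since no source used here says whether counting was strand-specific, reads from the shared stretch cannot be told apart.

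The start regions of the 3 genes are printed to set the members that passed the test beside the one that did not. Each runs from 250 bases before to 50 after the RefSeq start on GRCm38.p6, minus strand, 5′ to 3′. The RefSeq and GENCODE starts differ for Sox11, whose window lies wholly upstream of the GENCODE start at 27342574. Motif positions refer to the RefSeq start. Capitals mark each CCAAT box, a common promoter motif, read as CCAAT or, on the other strand, as ATTGG. The windows are chr13:28953650-28953949 for Sox4, chr12:27342669-27342968 for Sox11 and chr2:152397997-152398296 for Sox12.
Sox4: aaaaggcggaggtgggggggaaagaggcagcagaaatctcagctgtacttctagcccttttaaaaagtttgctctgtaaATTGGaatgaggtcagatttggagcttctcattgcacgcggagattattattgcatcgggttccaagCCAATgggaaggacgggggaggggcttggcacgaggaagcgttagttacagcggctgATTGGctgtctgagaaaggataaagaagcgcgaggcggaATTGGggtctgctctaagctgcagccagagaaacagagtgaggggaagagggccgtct
Sox11: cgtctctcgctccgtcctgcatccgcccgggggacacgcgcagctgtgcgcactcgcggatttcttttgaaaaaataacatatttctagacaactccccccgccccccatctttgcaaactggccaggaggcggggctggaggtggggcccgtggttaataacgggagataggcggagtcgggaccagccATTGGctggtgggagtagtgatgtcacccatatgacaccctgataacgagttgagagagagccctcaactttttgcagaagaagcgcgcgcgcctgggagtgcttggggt
Sox12: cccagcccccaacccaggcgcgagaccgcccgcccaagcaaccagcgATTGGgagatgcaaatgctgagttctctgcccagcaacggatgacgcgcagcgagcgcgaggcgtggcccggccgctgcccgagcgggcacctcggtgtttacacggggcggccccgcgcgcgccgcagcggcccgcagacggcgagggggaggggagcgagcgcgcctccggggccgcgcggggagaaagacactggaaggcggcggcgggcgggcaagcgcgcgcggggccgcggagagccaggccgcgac

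Sox4 held 4 CCAAT boxes in this window, the outermost beginning 171 bases before the start site and the innermost 8 bases before it. Sox11 held 1, beginning 60 bases upstream, and Sox12 held 1, beginning 203 bases upstream. Of 9424 such windows of tested genes, 37.9% hold a CCAAT box on either strand, so its presence is common. The GC box GGGCGG, found in 66.1% of those windows, occurred at 2 places in Sox11, at 4 in Sox12 and at none in Sox4. Neither the TATA box TATAAA (6.59% of windows) nor the SOX-type cores ACAAAG (13.0%) and ACAATG (6.81%) was found in any of the 3. The windows differed in base composition. The GC content was 52.0% for Sox4, 58.7% for Sox11 and 76.7% for Sox12, against a median of 61.7% over tested genes. The CpG dinucleotides numbered 12, 21 and 47, against a median of 22. The motifs were chosen after the windows had been read.

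Sox11 transcripts were 2.10 times as abundant in distal as in proximal progenitors, Sox4 transcripts were 1.53 times as abundant, and Sox12 gave no call. Of 9512 tested genes, 3.39% were called at an adjusted p of 0.05, with 1.11% higher on the distal side and 2.27% on the proximal side. Of the 3 SoxC genes, 2 were called, both higher in distal libraries. Log2 differences are distal over proximal throughout, and a positive value means more transcript distally. Lack of overlap between the regions is given below as description only, since its share over all tested genes was not computed. In bulk RNA, fewer cells that express a gene and less RNA per cell cannot be told apart.

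Sox11, which in mouse is known for roles in neurons, joints and growth plates, stood at 303, 328 and 282 CPM in proximal libraries 1 to 3. In distal libraries 1 to 3 it stood at 570, 746 and 598 CPM. Every distal library was above every proximal one, and distal library 2 was the highest. The means were 304.5 ± 23.2 CPM (SD, n = 3) and 638 ± 94.9 CPM. Its log2 difference was 1.07 (SE 0.15, 95% interval 0.74 to 1.39; edgeR adjusted p = 0.0026), that is 2.10-fold with an interval of 1.67 to 2.62. The Sox11 p-value ranked 74th of the 9512 genes, and 4.31% of them had a larger change in either direction. The call held in each of 18 alternatives, with log2 fold changes of 0.94 to 1.15.

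Sox4, which is induced by TGF-beta in several cell types and takes part in skeletal, heart and lymphocyte development, stood at 304, 345 and 293 CPM in proximal libraries 1 to 3. It stood at 503, 416 and 520 CPM in distal ones. The regions did not overlap, though distal library 2, the highest for Sox11, was the lowest distal library for Sox4. The means were 314 ± 27.4 CPM and 480 ± 55.8 CPM (SD, n = 3). Its log2 difference was 0.61 (SE 0.14, 95% interval 0.30 to 0.92; edgeR adjusted p = 0.041), 1.53-fold with an interval of 1.23 to 1.89. This call lies close to the threshold. It was lost in each of the 6 fits that left out a library, with adjusted p of 0.050 to 0.19, and with scaling by library size alone (adjusted p = 0.074). It was also lost without proximal library 1 and distal library 3 together (adjusted p = 0.059). The log2 fold change stayed between 0.53 and 0.70 in all 18 alternatives. The call held in 9 of them, with adjusted p = 0.029 by the DESeq2 Wald test and 0.017 by edgeR with a term for the library number.

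Sox12 stood at 107, 152 and 175 CPM proximally and at 123, 158 and 240 CPM distally, by library number. The regions overlapped, with proximal library 3 above distal libraries 1 and 2. The means were 145 ± 34.4 CPM and 173 ± 59.9 CPM (SD, n = 3), and the log2 difference of 0.25 (SE 0.25; edgeR adjusted p = 0.87) did not pass. Its 95% interval, -0.30 to 0.81, includes no difference and also the value found for Sox4. Without distal library 3 the Sox12 value was -0.05, and without proximal library 1 and distal library 3 together it was -0.22, so its direction is not settled.

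**Figure D1:**
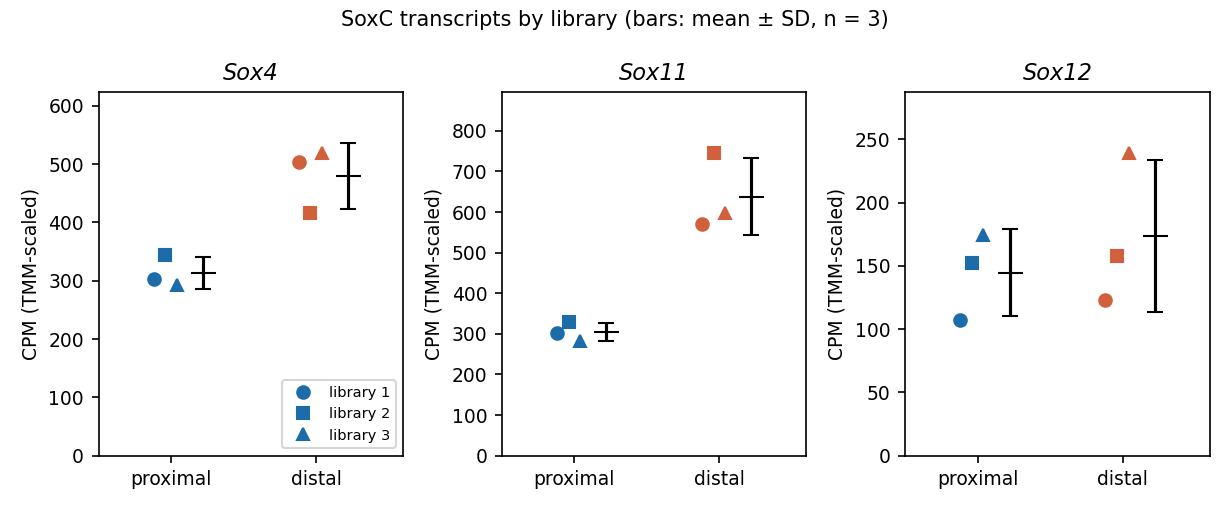
TMM-scaled CPM of Sox4, Sox11 and Sox12 in each of 3 proximal and 3 distal libraries, with a separate axis for each gene starting at 0. Symbols mark the library number and bars the mean ± SD. The regions are apart for Sox4 (at most 345 against at least 416 CPM) and Sox11 (at most 328 against at least 570 CPM) and overlap for Sox12. The share of all tested genes with regions apart was not computed.

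The members also differed in how much they varied between libraries of one region. The coefficient of variation (CV, the SD as a percentage of the mean) was 7.62% in proximal and 14.9% in distal libraries for Sox11, and 8.71% and 11.6% for Sox4. Sox12 had 23.8% and 34.6%. Counting error alone would give a CV of 5.71% and 5.69% for Sox12 and 2.97% to 4.05% for the others, and it covers sampling of reads only.

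Sox12 levels also differed between the library sets of the second principal component. The sets were formed from the same log2 CPM values, Sox12 among them, so this is a description. How many other genes differ in this way was not counted. In the set of proximal library 1 and distal libraries 1 and 2 it stood at 107 CPM proximally and 140 CPM distally on average, and in the other set at 163 and 240 CPM. With a term for the set, an alternative chosen after seeing the data, the Sox12 log2 fold change was 0.47 (SE 0.14; edgeR adjusted p = 0.056), still not called. Sox11 stood at 303 and 658 CPM within the first set and at 305 and 598 CPM within the second. Sox4 stood at 304 and 460 CPM in the first and at 319 and 520 CPM in the second. Each set holds 1 library of one region and 2 of the other, and no test was run within a set.

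Ratios of counts within a library need no scaling and show whether the members kept their proportions. Their height also depends on how well each transcript's 3' end is captured, so only the change between regions is read here, not the order of the genes. The Sox11 to Sox4 ratio was 0.998, 0.952 and 0.962 proximally and 1.13, 1.79 and 1.15 distally, by library number. All 3 distal ratios were above the proximal ones. The difference in mean log2 ratio was 0.45, with SDs of 0.036 in proximal and 0.38 in distal libraries. The exact two-sided permutation test gave p = 0.1, the smallest that 3 against 3 libraries allow (adjusted over 3 pairs of members, 0.3). Without distal library 2 the Sox11 to Sox4 difference was 0.23. A difference between the regional changes of Sox11 and Sox4 was therefore not established.

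The Sox11 to Sox12 ratio was 2.82, 2.15 and 1.61 in proximal and 4.63, 4.71 and 2.49 in distal libraries 1 to 3, a difference in mean log2 ratio of 0.82 (exact permutation p = 0.2, adjusted 0.3). Distal library 3 lay within the proximal range. For Sox4 to Sox12 the ratios were 2.83, 2.26 and 1.68 against 4.09, 2.62 and 2.17, a difference of 0.37 (exact permutation p = 0.5, adjusted 0.5). With 3 libraries per region these tests could show neither a difference in regional change between members nor its absence. Summed over the 3 genes, SoxC transcripts were at 714, 826 and 750 CPM in proximal libraries 1 to 3 and at 1196, 1320 and 1357 CPM in distal ones.

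**Figure D2:**
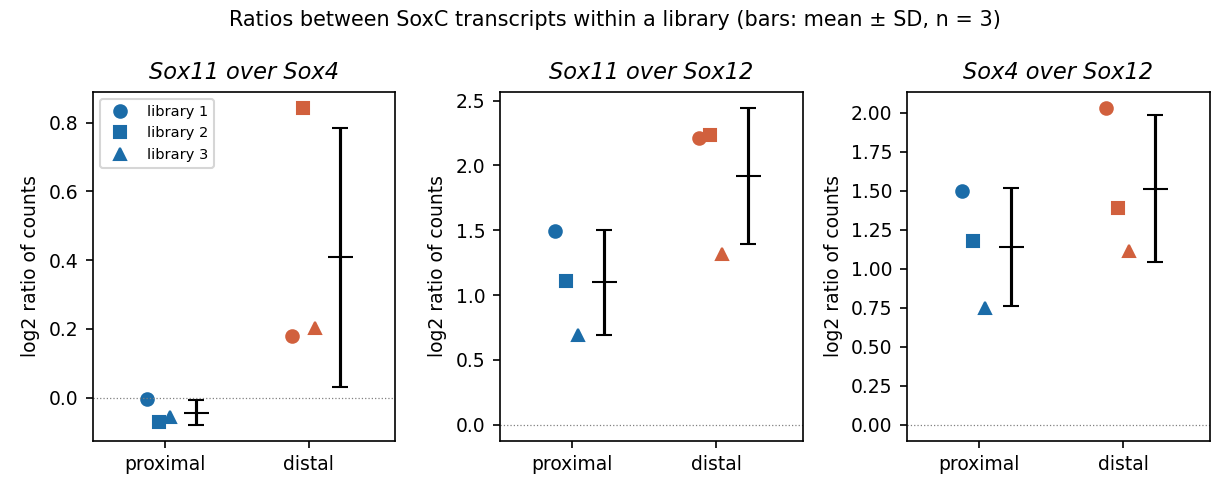
Log2 ratio of the counts of 2 SoxC genes within each library, by region, with bars for the mean ± SD of 3 libraries and a dotted line at equal counts. All distal Sox11 to Sox4 ratios (1.13 to 1.79 before taking logs) lie above the proximal ones (0.952 to 0.998), while the other ratios overlap between regions.

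Other Sox genes give the context. Of 20 genes listed for the family, the 3 SoxC members included, 11 were in the table and 6 were tested. Of these 6, 5 were called, all higher in distal libraries, against 3.39% of all tested genes called and 1.11% higher distally. Sox12 was the tested gene without a call. The 5 include the members Sox4 and Sox11, so only Sox5, Sox6 and Sox9 add to the members' own results. The median log2 fold change of the 6 tested genes, members included, was 1.27, against 0.0092 over all tested genes. Sox9, the master factor of cartilage and a gene of the sort, was at 126, 93.3 and 94.2 CPM proximally and 365, 269 and 365 CPM distally, libraries 1 to 3 in order (log2 difference 1.68, SE 0.18; edgeR adjusted p = 0.0006). The SoxD genes, whose products assist Sox9 on cartilage genes, were scarcer. Sox5 totalled 28 counts in proximal and 137 in distal libraries (log2 difference 2.38; edgeR adjusted p = 0.0062). Sox6 totalled 76 and 187 (1.48; edgeR adjusted p = 0.031), and its call was lost in 4 of the 6 fits that left out a library (proximal 2 or 3, distal 1 or 2, giving adjusted p = 0.078 to 0.14). Whether the larger fold changes of Sox9 and Sox5 differ from that of Sox11 was not tested.

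The remaining Sox genes were near the limit of detection. The SoxD gene Sox13 had 19 counts in proximal and 35 in distal libraries, and Sox10, the Schwann cell and neural crest factor, had 26 and 17. The vessel gene Sox18, the SoxE gene Sox8 and the neural SoxB1 gene Sox3 had 2 to 7 counts per region. None of these 5 passed the filter on low counts.

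Genes reported as SoxC targets in mouse or other systems were taken as a list of 7, of which 6 were tested. Of these, 3 were called, all higher in distal libraries, against 3.39% of all tested genes called and 1.11% higher distally. The median was 1.03, against 0.0092 over all tested genes. The lists were chosen with earlier results of these data known, and no set test was run. Gdf5, a growth factor of forming joints whose promoter Sox11 has been reported to bind, was at 26.1, 19.3 and 21.2 CPM proximally and 147, 109 and 173 CPM distally, libraries 1 to 3 in order. It had the largest change of the list, a log2 difference of 2.70 (SE 0.23; edgeR adjusted p = 8.67e-05). Wnt5a, a WNT ligand that directs cell polarity in limb outgrowth and growth plates, was at 50.2, 76.7 and 78.1 CPM proximally and 113, 160 and 131 CPM distally, libraries 1 to 3 in order. Its regions did not overlap, and the log2 fold change was 0.97 (SE 0.21; edgeR adjusted p = 0.033). Wnt5a lost its call in 5 of the 6 fits without a library, the exception being distal library 3 (0.052 to 0.15 once adjusted), and also with library size alone (0.089).

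Map2, a microtubule protein best known from neurons, totalled 26 counts in proximal and 95 in distal libraries (log2 difference 2.04, SE 0.47; edgeR adjusted p = 0.042). That call failed in 5 of the 6 fits without a library, the exception being distal library 3 (0.051 to 0.20 once adjusted), and also with limma-voom (0.061). Tead2, the Hippo pathway factor described as a direct target of Sox4 and Sox11 in mouse mesenchyme, was at 261, 362 and 357 CPM proximally and 303, 343 and 394 CPM distally, libraries 1 to 3 in order. The regions overlapped, with a log2 difference of 0.08 (95% interval -0.28 to 0.45; edgeR adjusted p = 0.95). Ezh2, a histone methyltransferase gene reported as a Sox4 target in mouse mammary cells, was at 38.9 to 60.2 CPM in proximal and 54.6 to 92.3 CPM in distal libraries (0.58, SE 0.25; edgeR adjusted p = 0.42). Ezh2 was at 0.34 without distal library 2, and without proximal library 1 and distal library 3 together it was called at 0.92 (edgeR adjusted p = 0.021). Among the neuronal genes that SoxC factors activate, Dcx had 22 and 44 counts (1.09, SE 0.55; edgeR adjusted p = 0.56), and Tubb3, with 16 and 7, was not tested.

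The list of Tead and Yap genes, Tead2 among them, gave no call among 6 tested by edgeR (median 0.013), with 0 at an unadjusted p under 0.05 and 0 called by DESeq2 or limma-voom. At a share of 3.39% called over all tested genes, no call among 6 says little about this list. Yap1, the coactivator that Tead factors recruit, was at 129 to 134 CPM proximally and 124 to 146 CPM distally (0.06, 95% interval -0.26 to 0.37; edgeR adjusted p = 0.96). The partner list held Sdcbp, which encodes the Sox4-binding adaptor syntenin, and POU class III factors. Sdcbp was at 43.0 to 89.0 CPM in proximal and 45.7 to 93.5 CPM in distal libraries (0.08; edgeR adjusted p = 0.98) and was the 1 member tested, uncalled by DESeq2 and limma-voom as well. Pou3f1 and Pou3f3 had 33 and 4 counts in proximal and 12 and 15 in distal libraries.

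In the beta-catenin list 1 of 15 tested genes was called (median 0.084), against 3.39% of all tested genes. That gene was Ccnd1, the G1 cyclin, at 357, 219 and 241 CPM proximally and 465, 499 and 554 CPM distally, libraries 1 to 3 in order (0.90, SE 0.19; edgeR adjusted p = 0.025). This call did not survive 5 of the 6 fits without a library, all but that without proximal library 1 (adjusted p = 0.052 to 0.13). Ctnnb1, which encodes beta-catenin, was at 551 to 771 CPM proximally and 638 to 714 CPM distally, so the distal values lay inside the proximal range (0.02, 95% interval -0.31 to 0.35; edgeR adjusted p = 0.99). Tcf7l1, a mostly repressive partner of beta-catenin, was at 181 to 325 CPM and 215 to 355 CPM (0.08; edgeR adjusted p = 0.97). The list of TGF-beta ligands, receptors and Smads, a pathway upstream of Sox4, gave no call among 8 tested by edgeR, DESeq2 or limma-voom (median 0.048). With 3.39% of all tested genes called by edgeR, no call among 8 says little about this list. At an unadjusted p under 0.05 edgeR gave 2 of them, Tgfb2 at 0.81 and Tgfbr3 at -0.82 (edgeR adjusted p = 0.12 and 0.14), which were named after their values were seen. The list had 1 call without distal library 3 and 2 without proximal library 1 and distal library 3 together. The ligand gene Tgfb3 was at 77.6 to 137 CPM proximally and 103 to 118 CPM distally (0.14; edgeR adjusted p = 0.94). The receptor gene Tgfbr1 was at 93.0 to 145 and 115 to 186 CPM (0.20; edgeR adjusted p = 0.89).

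**Figure D3:**
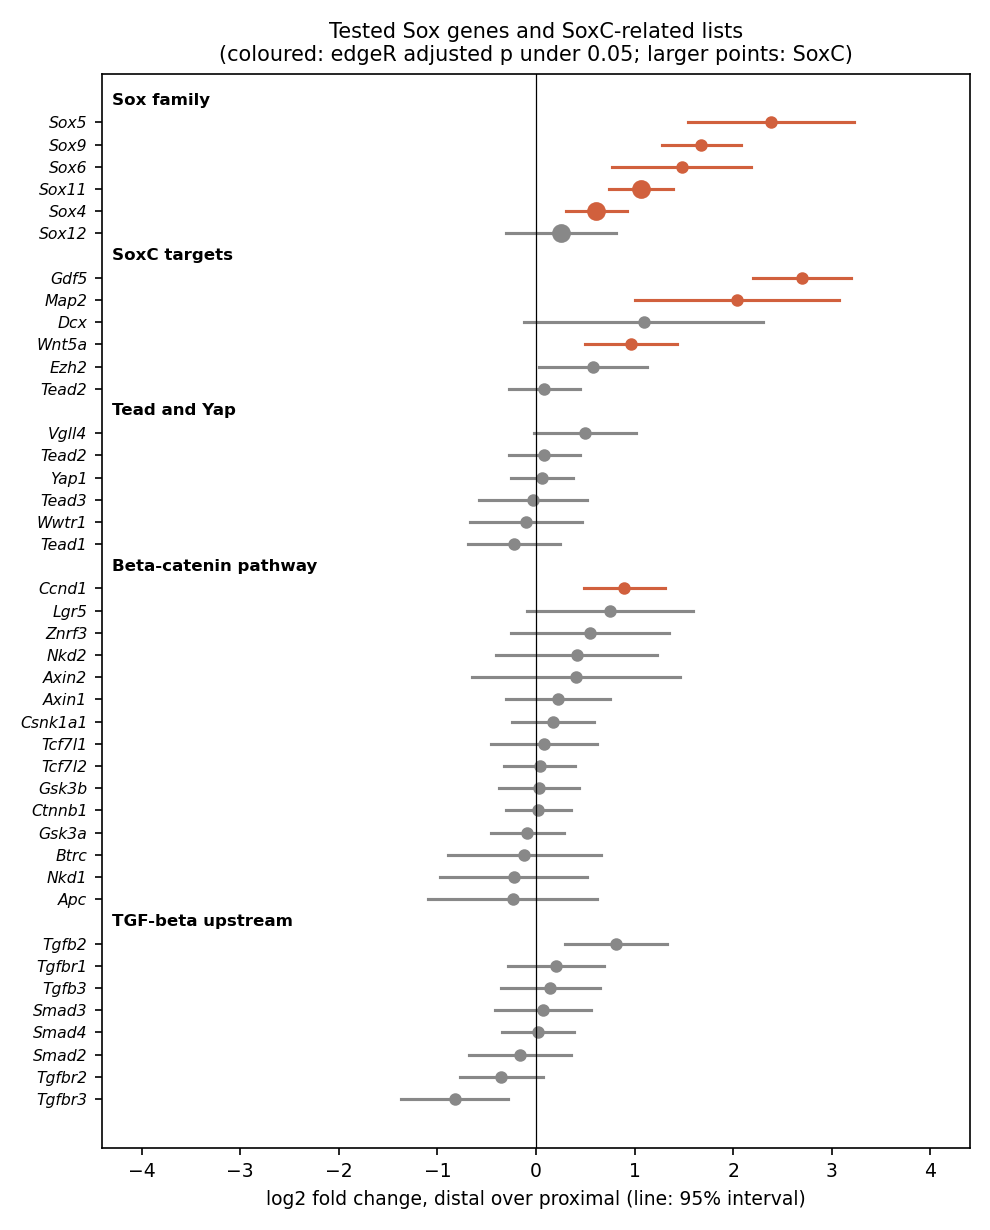
Log2 fold change, distal over proximal, with its 95% interval for every tested gene of 5 lists, 3 libraries per region. Orange points were called higher in distal libraries (edgeR adjusted p under 0.05), grey points were not called, and larger points are the SoxC genes. Of the 6 tested Sox genes, SoxC members included, 5 were called, of 6 targets 3, and of the Tead and TGF-beta lists none. Over all tested genes 3.39% were called.

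The genes whose levels followed each member most closely over the 6 libraries were ranked by Pearson's r of log2 CPM among 4633 genes whose log2 CPM averaged 5 or more. All values share the libraries, their depth and the regional difference, so r is a description. For Sox4 they were Osr2 (r = 0.997), a factor of joints and palate, then Palm (0.982), Vps72 (0.978) and Wwp2 (0.975), the ubiquitin ligase gene that hosts a microRNA of cartilage. For Sox11 they were Drg2 (0.995), Twist2 (0.991), a mesenchymal factor, Snrnp40 (0.988) and Hnrnpab (0.982). For Sox12 they were Pkd1 (0.993), Srp68 (0.990), Chaf1a (0.989) and Ift172 (0.987). Sox4 and Sox11 had r = 0.858 with each other, and Sox12 had r = 0.364 with Sox4 and 0.297 with Sox11.

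Of these 12 genes, 2 were called, both higher in distal libraries, against 3.39% of all tested genes called. Each was picked for following a member over these same 6 libraries. Their calls, or lack of them, therefore depend on that member's pattern and are no separate evidence. Twist2 was at 74.9, 102 and 74.1 CPM proximally and 200, 256 and 192 CPM distally, libraries 1 to 3 in order (log2 difference 1.37; edgeR adjusted p = 0.0025). Like Sox11, it was highest in distal library 2. Wwp2 was at 71.6, 77.3 and 64.4 CPM proximally and 250, 137 and 195 CPM distally, libraries 1 to 3 in order (1.45; edgeR adjusted p = 0.0043), and like Sox4 it was lowest of the distal libraries in distal library 2. Osr2 was at 61.6, 74.0 and 60.8 CPM against 111, 86.0 and 113 CPM, with no overlap between regions, and did not pass (0.66; edgeR adjusted p = 0.092). None of the 4 genes nearest to Sox12 was called.

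Markers of other cell types moved with region as well, and their part in the SoxC values was not tested. Of 6 neuron markers 5 were in the table, with a summed level of 14.0 to 26.5 CPM in proximal and 39.8 to 64.1 CPM in distal libraries. Within it Stmn2 was called, higher in distal libraries (log2 difference 1.70; edgeR adjusted p = 0.016; lost without proximal library 2 or 3, at 0.090 and 0.087), with means of 11.2 CPM proximally and 35.8 CPM distally, most of the gain in the sum. The defining marker Tubb3, which with Dcx is also in the target list, averaged 2.74 CPM proximally and 1.29 CPM distally, and Elavl4 averaged 2.44 and 2.27 CPM. Dcx and Isl1 went the other way, at 3.88 and 7.90 CPM for Dcx and 0.368 and 2.525 CPM for Isl1. Dcx was tested and not called (edgeR adjusted p = 0.555), while Tubb3, Elavl4 and Isl1 had too few counts to be tested. Of 8 skeletal muscle markers 4 were in the table and all 4 were called higher in proximal libraries, against 2.27% of all tested genes. They summed to 187 to 511 CPM in proximal and 29.0 to 41.7 CPM in distal libraries. Myod1 had 171 counts in proximal and 6 in distal libraries. The Schwann cell and neural crest list, which shares Sox10 with the Sox family list, with 5 of 6 in the table, summed to 16.2 to 36.4 CPM in proximal and 9.40 to 15.6 CPM in distal libraries, with S100b the 1 member tested (-1.58; edgeR adjusted p = 0.10). This list had 1 call, higher proximally, without distal library 3, and also without proximal library 1 and distal library 3 together.

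Vessel, macrophage and epidermis markers had no tested member. They summed to 2.68 to 8.83, 3.60 to 5.35 and 4.01 to 6.62 CPM in proximal libraries. In distal libraries the sums were 1.48 to 5.01, 0.495 to 1.11 and 1.48 to 5.01 CPM, and Csf1r, a macrophage receptor gene, was at 0 in all 3. Of 4 blood markers only Hbb-y was in the table, at 0.632 to 57.2 CPM (-2.57; edgeR adjusted p = 0.46).

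**Figure D4:**
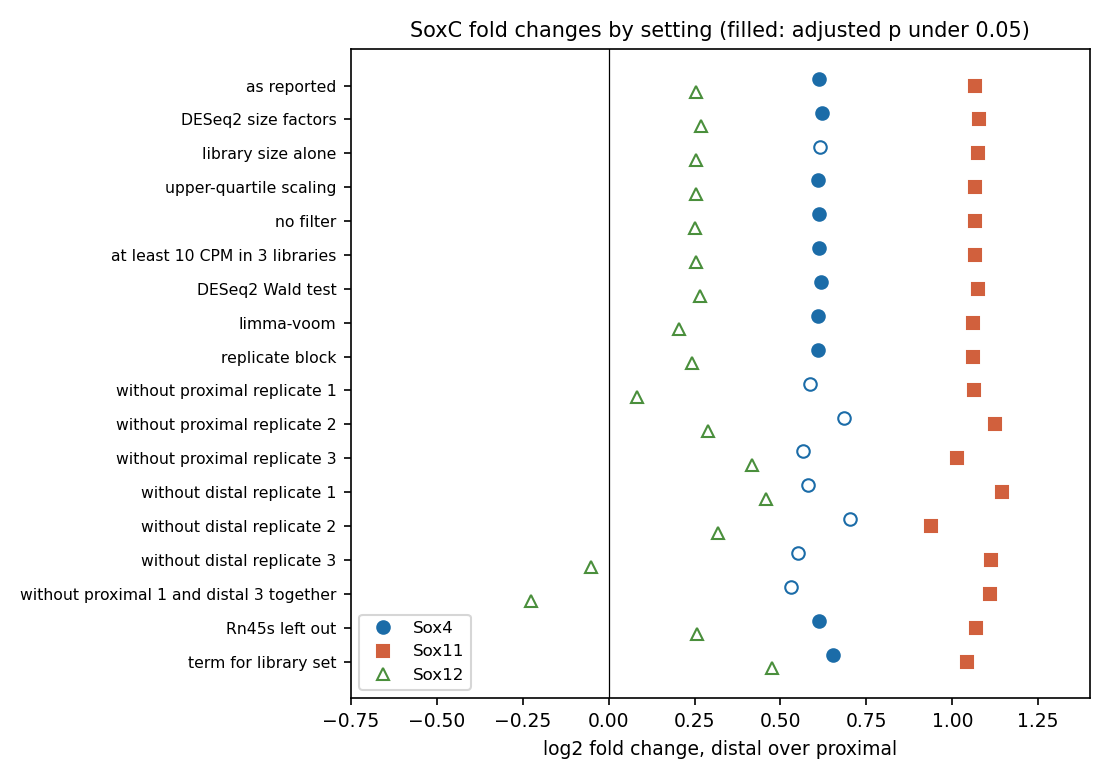
Log2 fold change, distal over proximal, of Sox4, Sox11 and Sox12 as reported and under each alternative scaling, filter, test and left-out library. Filled symbols passed an adjusted p of 0.05. Sox11 stays filled throughout (0.94 to 1.15), Sox4 loses its call without any single library (0.55 to 0.70), and Sox12 is open throughout and falls below 0 in 2 settings.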

How the data were processed

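Per the submitters' processing notes, mm10, HTSeq, TopHat2, DESeq2, cutadapt 1.8.3 and bcl2fastq 2.17.1.14 were used, in roles the notes do not list. Annotation, strandedness and UMI handling: not given in the sources used here. In the deposited table, raw counts are listed for each gene and library, for genes whose counts sum above 5. It also holds a normalized signal, which the authors made by dividing by 1 size factor per library (per the file headers and values), used only to check those factors.

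Counts were fitted with edgeR 4.0.16 in R 4.3.3 on the whole table: TMM scaling, filterByExpr by region (minimum count 10, minimum total 15; 9512 of 13158 genes kept), and the robust quasi-likelihood F test with region as the only term. Benjamini-Hochberg adjustment ran over all tested genes, threshold 0.05. The SE was obtained by dividing the absolute log2 difference by the root of F, and 95% intervals use the fit's degrees of freedom. On counts simulated from these libraries (9317 genes), the fit recovered 39.8% of 1-unit and 91.8% of 2-unit log2 changes, and 6.52% of calls were unchanged genes. Ratios used a pseudocount of 1 and exact permutation tests (scipy 1.17.1).

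The members and lists were chosen with earlier results of these data known. Named genes were the members, the other Sox genes, called members of the lists and the 2 most abundant others of each, Scx, and the 4 genes most like each member. Dcx, Tubb3, Pou3f3, Osr2 and the named markers were given beside these after their values were seen. Alternatives were DESeq2 1.42.0, limma-voom (limma 3.58.1), other scalings and filters, a replicate block, left-out libraries, Rn45s left out and a term for the library set. The 95% intervals carry the variation between libraries, while floors of 3 counts and counting CVs cover counting error only.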

Additional observations from a re-analysis of the deposited data

How the results depend on the processing

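Of 18 alternatives, the Sox11 call held in 18, the Sox4 call in 9, and Sox12 was never called. Sox4 kept its direction in all 18 but was not called with library size alone (0.62, adjusted p = 0.074), without proximal 1 and distal 3 together (0.53), at a threshold of 0.01 (0.61), or without any 1 library (0.55 to 0.70). Sox12 was -0.22 without proximal 1 and distal 3 together and -0.0520 to 0.458 without 1 library. The cause of these changes was not tested. The sample titles carry the same 3 identifying numbers in both regions, written here as libraries 1 to 3. The labels do not give the meaning of these numbers. Deviations of same-numbered libraries correlated at 0.354, -0.136 and 0.479, and not every library correlated best with its own number. Proximal library 1 correlated at 0.354 and 0.359 with distal libraries 1 and 2 and at -0.597 with distal library 3, which follows the library sets. These values therefore cannot show whether the libraries are pairs. As nothing says what the numbers mark, the block was kept as an alternative. With the replicate block the values were 0.61 for Sox4, 1.06 for Sox11 and 0.24 for Sox12 (SE 0.13, against 0.25 without the block; adjusted p = 0.48) and no member's call changed, and 465 genes were called in all. In CPM, Sox12 was higher distally in all 3 same-numbered comparisons, though by little in library 2 (152 CPM proximally and 158 CPM distally). The share of all genes with such an agreement was not computed, so it says little about Sox12.

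The count of 322 called genes was 143 at a threshold of 0.01, 862 without proximal 1 and distal 3 together, 535 with the term for the library set, and 171 to 334 without 1 library. The 15 called genes of the lists became 8 at 0.01 and 8 to 15 without 1 library. Without proximal 1 and distal 3 together Ezh2 gained a call (0.92), and the TGF-beta and Schwann cell lists, with 0 calls as reported, had 2 and 1; without distal 3 alone each had 1. Some uncalled genes changed sign. Without 1 library Tead2 ranged from -0.05317 to 0.1756, Tcf7l1 ranged from -0.1823 to 0.3244, Sdcbp ranged from -0.2173 to 0.3662, Ctnnb1 ranged from -0.09243 to 0.1508, Tgfbr1 ranged from -0.0191 to 0.3515. Without proximal 1 and distal 3 together Tead2, Tcf7l1, Tgfbr1 and Tgfb3 were at -0.153, -0.365, -0.188 and -0.0620, and Sdcbp was at -0.193 with the library-set term. Of the 4 genes most like each member, Spearman's rho shared 2 for Sox4 and 0 for Sox11, and library size alone shared 1 for Sox11 and 2 for Sox12. Sox12 varied between libraries of a region by more than counting error (CV 23.8% and 34.6% against 5.71% and 5.69%).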
